A study of Mus musculus with 2 samples.

Results

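Lymphocytes that stayed in endothelial-enriched suspensions of 2 mouse mammary tumor models were examined by droplet-based single-cell RNA sequencing. PyMT-M (High-MAC, rich in macrophages) and PyMT-N (Low-MAC) are sub-lines of the MMTV-PyMT model, in which the polyoma middle T oncogene is driven by a mammary promoter. Both were grown in the mammary fat pad of female C57BL/6 mice that received the cells at 6 to 8 weeks of age. The labels name no treatment and no further allele, both groups share the oncogene, and each line stands for 1 tumor model. Cells carrying CD45, the surface protein common to leukocytes, and red cells were depleted with beads, and CD31+CD144+ cells were then enriched and sorted. Each library pooled 3 tumors, so a condition had 1 library, no difference between PyMT-M and PyMT-N had a replicate check, and no p-value was computed. All intervals below are 95% intervals and cover counting error only.

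A barcode counted as a lymphocyte when it had at least 500 detected genes, at most 10% mitochondrial UMIs (unique molecular identifiers, 1 per captured transcript), at least 2 UMIs of Cd79a, Cd79b, Ms4a1, Cd3e, Cd3d, Cd3g and Trac in sum, and at least 1 of Ptprc, Coro1a and Cd52. It was left out with more than 1 UMI of the macrophage genes Csf1r, C1qa and C1qb, more than 1 of the tumor genes Krt8, Krt18 and Rhox5, or more than 3 of the endothelial genes Pecam1, Flt1, Emcn and Kdr. This rule found 462 lymphocytes, 311 in PyMT-M and 151 in PyMT-N, among 12258 barcodes past the gene and mitochondrial limits and 14795 in all. A cell was called B where the sum of Cd79a, Cd79b and Ms4a1 was larger than that of Cd3e, Cd3d, Cd3g and Trac, and T where it was smaller. There were 341 B cells, 119 T cells and 2 cells with equal sums. Members were thus chosen by measured UMI counts of the genes named here. Levels of those genes, and of all genes between B and T cells, are descriptions.

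B lymphocytes carry an antibody on their surface, signal through its partner proteins CD79A and CD79B, and present antigen on MHC class II. T lymphocytes recognise peptide on MHC molecules through a receptor whose signal runs through the CD3 chains. CD8 T cells kill target cells, CD4 T cells help other cells, and regulatory T cells, marked by the factor FOXP3, restrain both. In tumors, lymphocytes enter from blood through the vessel wall, which is the tissue this sort was made to capture.

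The regions in front of 1 B gene and 1 T gene of the rule are shown because the genes of factors known to act in each lineage, Ebf1 in B cells and Lef1 and Tcf7 in T cells, differed between the classes below. Of the 7 marker genes, 4 (Cd79a, Cd3e, Cd3d and Cd3g) matched an entry in RefSeq's promoter table of GRCm38.p6. Both strands of the 250 bases before each start were searched for 13 motifs, and the 2 shown were picked after their matches were seen. Capitals mark CAAGGGAAT, a known EBF1 site, in Cd79a (chr7:24897247-24897496, plus strand), where it begins 174 bases before the start. In Cd3d (chr9:44981536-44981785, plus strand) they mark CTTTGAT, a TCF/LEF site, read here from the other strand and beginning 55 bases before the start.
Cd79a: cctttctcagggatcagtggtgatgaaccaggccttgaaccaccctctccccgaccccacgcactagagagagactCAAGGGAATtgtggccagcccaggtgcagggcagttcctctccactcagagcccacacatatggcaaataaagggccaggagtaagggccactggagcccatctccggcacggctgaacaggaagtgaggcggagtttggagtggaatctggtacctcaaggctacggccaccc
Cd3d: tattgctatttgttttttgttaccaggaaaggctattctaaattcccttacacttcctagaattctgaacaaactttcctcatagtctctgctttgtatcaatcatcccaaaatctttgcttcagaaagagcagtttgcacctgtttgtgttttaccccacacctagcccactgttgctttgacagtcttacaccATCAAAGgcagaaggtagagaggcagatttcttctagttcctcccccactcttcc
CAAGGGAAT occurs in 74 of 32851 promoter windows (0.225%) and, among the 4 marker genes, in Cd79a. CTTTGAT occurs in 3.21% of windows and, among the 4, in Cd3d. A match is a string of letters and not a measured binding site.

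The other 11 motifs were not shown. The ETS core GGAAGT matched Cd79a, Cd3d and Cd3e and occurs in 19.7% of windows. The E-box CAGGTG matched Cd79a, Cd3d and Cd3g and occurs in 17.2% of windows. The GATA motif AGATAA matched Cd3g and occurs in 9.99% of windows. The other 8 matched none of the 4 windows. They were CCCNNGGG for EBF1 (in 11.8% of windows), the octamer ATGCAAAT (1.60%), the ETS motif CGGAAGT (4.92%) and the PU.1 motif GAGGAAGT (2.44%), which both contain the ETS core, the TCF/LEF motif CTTTGAA (4.46%), the RUNX motif TGTGGT (14.0%) and its longer form TGTGGTT (4.40%), and the Y-box CTGATTGG (3.83%).

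Lymphocytes made up 4.67% of kept barcodes in PyMT-M (311 of 6659, interval 4.18 to 5.20) and 2.70% in PyMT-N (151 of 5599, 2.29 to 3.16). The order of the libraries depended on the limits on barcodes. With no limit on macrophage marker UMIs, an alternative chosen after the data were seen, the shares were 5.0% (4.49 to 5.55) and 4.13% (3.62 to 4.68), with overlapping intervals. Under the gene limits of the study the order turned, at 7 of 5777 (0.121%) and 32 of 5354 barcodes (0.598%). B cells outnumbered T cells in both libraries under the main limits, whereas under the gene limits of the study B cells were 2 of the 7 and 15 of the 32 lymphocytes. In PyMT-M, 239 of 311 lymphocytes (76.8%, 71.8 to 81.4) were B and 71 (22.8%, 18.3 to 27.9) were T. In PyMT-N, 102 of 151 (67.5%, 59.5 to 74.9) were B and 48 (31.8%, 24.5 to 39.9) were T. The intervals of the 2 libraries overlap for both classes. Depletion, sort and pooling can set these shares, which are shares of sequenced barcodes and not of the tumor. As a background level, 2 or more lymphocyte marker UMIs were found in 1.36% of 5227 tumor-marker cells of PyMT-M (at least 5 UMIs of Krt8, Krt18 and Rhox5, median depth 24163 UMIs) and in 0.776% of 3735 of PyMT-N (21545 UMIs). In endothelial reference cells, defined after the data were seen by at least 5 UMIs of Flt1, Emcn and Kdr and at most 1 of the tumor and 1 of the macrophage genes, the shares were 0.377% of 531 and 0.267% of 1124. Those with 2 or more lymphocyte marker UMIs were then left out, and the remaining 529 and 1121 cells gave all other endothelial values.

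**Figure D1:**
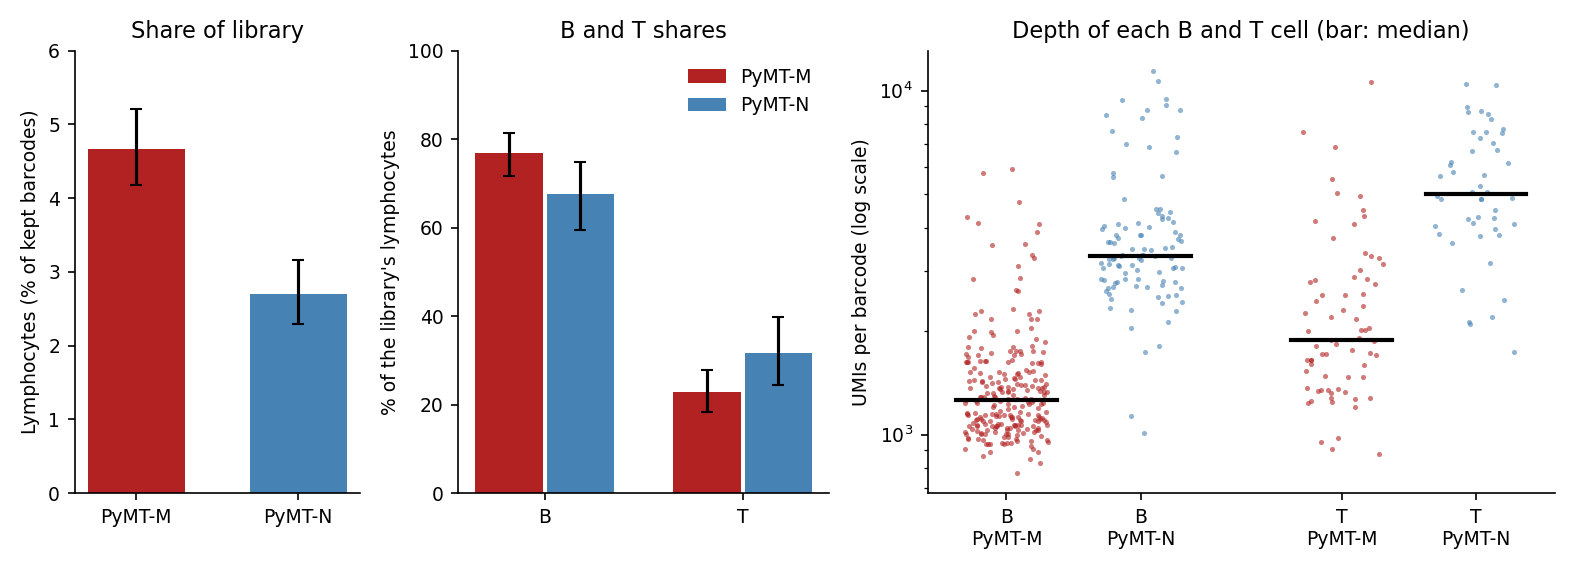
Left: lymphocytes as a percentage of kept barcodes. Middle: B and T cells as a percentage of each library's lymphocytes, with exact 95% counting intervals as error bars. Right: UMIs per barcode on a log scale, 1 point per cell, with black bars at the medians, which are 1261 and 3315 for B cells and 1880 and 5003 for T cells of PyMT-M and PyMT-N.

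Lymphocytes were shallow compared with the cells around them, and shallower in PyMT-M. B cells had a median of 1261 UMIs and 703 genes in PyMT-M and 3315 UMIs and 1379.5 genes in PyMT-N, a 2.63-fold gap in UMIs. T cells had 1880 and 5003 UMIs, a 2.66-fold gap. Endothelial reference cells differed by 2.34-fold in the same direction, whereas tumor-marker cells did not (0.892-fold). In total, 532417 UMIs came from PyMT-M lymphocytes and 681968 from PyMT-N lymphocytes. The gene limits stated by the study, within 2-fold of each library's median gene number, keep 7 of the 311 and 32 of the 151. The gene limit of 500 also bears unequally: 59 PyMT-M members had under 600 genes, against 0 in PyMT-N, and 26 further PyMT-M barcodes with at least 200 but under 500 genes met every other limit, against 0. Members with exactly 2 marker UMIs numbered 20 and 1, and barcodes with exactly 1 that met the other limits numbered 19 and 2. The libraries had 20 barcodes in common, 2 of them on lymphocytes, and none was a lymphocyte in both.

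The genes by which members were chosen had the following levels, which the rule fixes in part. B cells of PyMT-M had 2311 CPM (the summed UMIs of a gene in a group, scaled to the same total in every group) of Cd79a and 1207 CPM of Cd79b, and those of PyMT-N had 2243 and 1296 CPM. T cells had 223 CPM of Cd3e and 452 CPM of Trac in PyMT-M, and 351 and 396 CPM in PyMT-N. Cd52, a leukocyte surface glycoprotein, lay between 2207 and 2954 CPM in all 4 groups. Ptprc, which encodes CD45 itself, was found in B cells at 1227 CPM in PyMT-M and 1154 CPM in PyMT-N, and in T cells at 1304 and 1224 CPM. After every cell was thinned to 1031 UMIs, 74.2% of 198 B cells and 76.1% of 67 T cells of PyMT-M had a Ptprc UMI, against 67.3% of 101 and 66.7% of 48 in PyMT-N. Ptprc is 1 of the 3 leukocyte genes of which the rule asks for a UMI, so these shares are a description of the members. Thinning left out 41 and 4 shallower cells of PyMT-M and 1 and 0 of PyMT-N, and before it the shares were higher in each group.

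Immunoglobulin and MHC class II genes were among the genes highest in B cells, and T cell receptor constant genes among those highest in T cells. Each gene with at least 30 UMIs was ranked by its log2 ratio with 50 CPM added to both sides, leaving out the rule's genes, and called past 2-fold on that scale. Of 4276 ranked genes, 215 were higher in B cells (5.03%) and 179 in T cells (4.19%), or 9.21% in either direction, and the median ratio of all ranked genes was -0.09. Within PyMT-M, 7.52% of 2648 ranked genes were higher and 5.17% lower in B cells (12.7% in either direction), and within PyMT-N 6.84% and 4.88% of 3405 (11.7%). The 10 genes highest in B cells were Igkc, H2-Eb1, Ebf1, Ly6d, Cd74, H2-Ab1, H2-Aa, Bank1, Iglc2 and Mef2c. The 10 highest in T cells were Trbc2, Tox, Ikzf2, Trbc1, Gm2682, Skap1, Ms4a4b, Nkg7, Prkch and Lef1.

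All 10 genes of MHC class II presentation were past 2-fold higher in B cells, against 5.03% of all ranked genes, with a median of 2.73 on the log2 scale. Cd74, the invariant chain that guides class II molecules, reached 10866 CPM in B cells of PyMT-M and 11616 CPM in those of PyMT-N, against 915 and 507 CPM in T cells. The order of the T cell values turned, to 191 and 548 CPM of Cd74, without the 14 and 3 T cells that had at least 5 UMIs of 8 myeloid and mast cell genes. H2-Aa, a class II alpha chain, stood at 3742 and 3721 CPM in B cells and 234 and 168 CPM in T cells. Ciita, the class II transactivator, was lower in level, at 305 and 287 CPM in B cells and 28.6 CPM (5 UMIs) and 0 UMIs in T cells, where 0 allows up to 11.4 CPM. In both libraries, B cells stood above T cells for each of these 3.

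All 13 genes of B cell receptor signaling were also past 2-fold higher in B cells, against 5.03% of all ranked genes, with a median of 2.01. Prkcb, a protein kinase C, was at 785 CPM in B cells of each library and at 240 and 156 CPM in T cells. Syk, the kinase that docks on CD79A and CD79B, was at 376 and 412 CPM in B cells and at 45.7 and 19.1 CPM in T cells. Ebf1, a transcription factor that specifies the B lineage, was at 2695 CPM in B cells of PyMT-M and 2948 CPM in those of PyMT-N, against 120 and 107 CPM in T cells. Pax5, a second B lineage factor, was at 666 and 709 CPM in B cells.

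T cell genes mirrored this. Of 14 T cell markers outside the rule, 13 were past 2-fold lower in B cells and Cd2 was not, with a median of -2.20. Of 11 T cell receptor signaling genes 10 were, with a median of -1.90. Of all ranked genes, 4.19% were lower in B cells. Trbc2, a receptor beta constant gene, was at 1224 CPM in T cells of PyMT-M and 1239 CPM in those of PyMT-N, and at 11.4 and 73.6 CPM in B cells. Lef1, a factor of naive T cells, was at 686 and 659 CPM in T cells and 19.9 and 93.3 CPM in B cells. Tcf7, its partner, was at 263 and 183 CPM in T cells. Nkg7, a protein of cytotoxic granules, was at 274 and 400 CPM in T cells, against 0 UMIs and 1 UMI in B cells. Of 10 MHC class I genes, which most cells use, and 9 pan-leukocyte genes outside the rule, 0 were called, against 9.21% of all ranked genes in either direction. Counts of 0 on lists this short do not set them apart from that share. The MHC class I list summed to 4950 CPM in B cells and 7422 CPM in T cells of both libraries (-0.58, -0.65 to -0.52). The pan-leukocyte list, with the rule's genes, summed to 8856 and 9206 CPM (-0.06, -0.11 to 0.00).

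**Figure D2:**
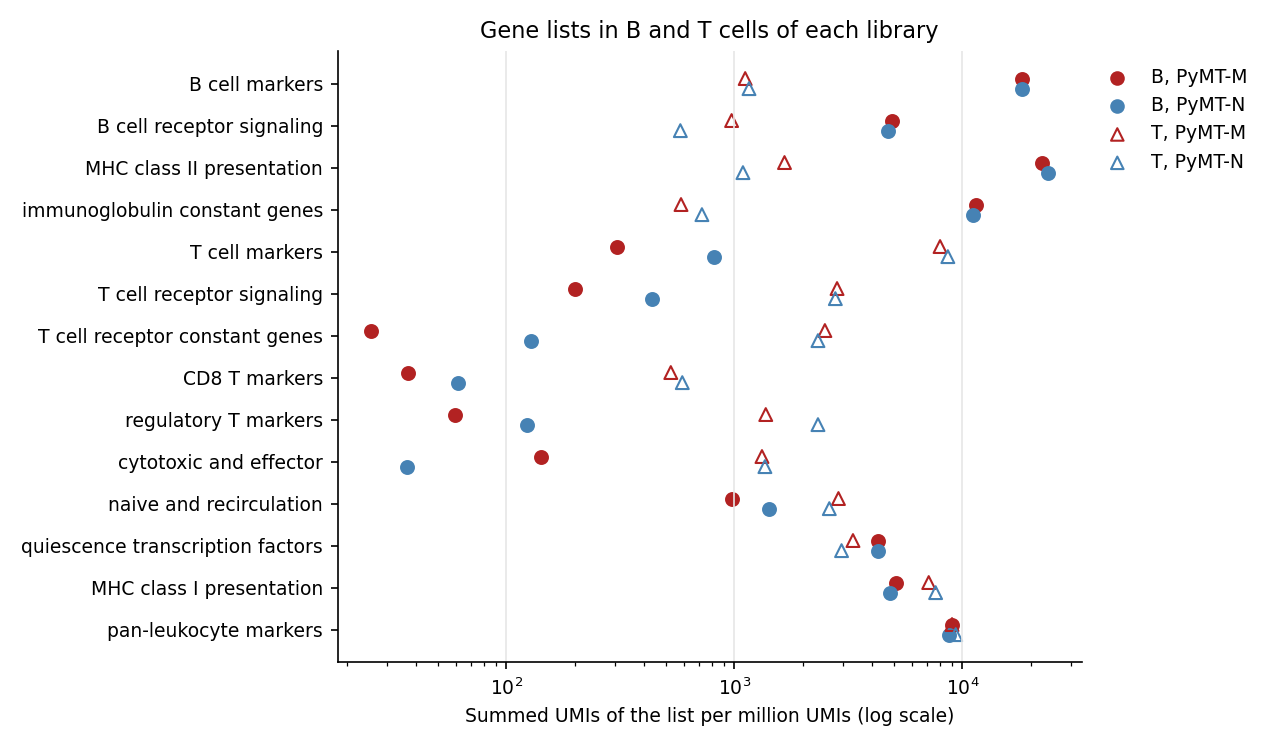
Summed level of each gene list (CPM, log scale) in B cells (filled circles) and T cells (open triangles) of PyMT-M (red) and PyMT-N (blue). The B cell, T cell and pan-leukocyte lists include genes of the rule. MHC class II presentation stood at 22349 and 23691 CPM in B cells of PyMT-M and PyMT-N, against 1658 and 1090 CPM in T cells, or 427 and 1167 CPM in T cells without those that had myeloid or mast cell UMIs.

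B cells held IgM and IgD genes and almost no UMIs of switched antibody classes. Ighm and Ighd, the constant genes of IgM and IgD, were at 1440 and 845 CPM in B cells of PyMT-M, against 1752 and 857 CPM in those of PyMT-N. T cells of PyMT-M and PyMT-N had 48 and 81 Ighm UMIs. Ighm had the most UMIs among heavy chain genes in 22 of 71 and 29 of 48 of these T cells. UMIs of switched classes were 4 of 807 heavy constant UMIs in PyMT-M (0.496%, 0.135 to 1.26) and 3 of 1066 in PyMT-N (0.281%, 0.0581 to 0.820). Fcer2a and Cr2, surface receptors of mature B cells, were at 279 and 416 CPM in PyMT-M, against 314 and 395 CPM in PyMT-N. Rag1 and Rag2, which recombine receptor genes in precursors, had 0 UMIs in both libraries, which allows up to 8.54 CPM in PyMT-M and 7.36 CPM in PyMT-N. Jchain, a gene of antibody secretion, had 3 UMIs and 0 UMIs. By the light chain with most UMIs, 190 of 239 PyMT-M B cells were kappa and 37 (15.5%, 11.1 to 20.7) were lambda, and in PyMT-N 87 of 102 were kappa and 14 (13.7%, 7.71 to 22.0) were lambda. UMIs of the other chain were nevertheless present in most of them, since 211 and 97 B cells had UMIs of both chains.

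Antibody variable genes were spread over many family members. In PyMT-M, 24 B cells had an Ighv call and these fell on 19 genes, with 3 cells on the most used, Ighv1-26. In PyMT-N, 19 cells fell on 17 genes, with 2 cells on Ighv5-17. For kappa, 17 cells of PyMT-M fell on 10 Igkv genes and 27 cells of PyMT-N on 18, with Igkv1-110 the most used in each, in 3 and 4 cells. Near-identical variable genes can share reads, so single assignments are uncertain.

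Genes of CD8, CD4 and regulatory T cells were each detected in a minority of T cells. Cd8a or Cd8b1 without Cd4 was found in 25 of 71 PyMT-M T cells (35.2%, 24.2 to 47.5) and 12 of 48 in PyMT-N (25.0%, 13.6 to 39.6). Cd4 without the Cd8 genes was found in 4 (5.63%, 1.56 to 13.8) and 13 (27.1%, 15.3 to 41.9), and no T cell had both. Foxp3 was found in 6 (8.45%, 3.16 to 17.5) and 11 (22.9%, 12.0 to 37.3). In B cells, which should lack these genes, the shares were 1 and 1 of 239 and 102 for Cd8, 1 and 3 for Cd4, and 0 and 1 for Foxp3. PyMT-N T cells were 2.66-fold deeper, and after thinning to 1031 UMIs the Cd4 shares were 4.48% (3 of 67) and 4.17% (2 of 48), the Cd8 shares 32.8% and 12.5% and the Foxp3 shares 4.48% and 14.6%, with overlapping intervals for each. Trdc, of gamma-delta T cells, was found in 3 and 4 cells. Ncr1 and Klrb1c, which mark NK cells, had 1 UMI each in T cells of each library.

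Most genes of T cell effectors and inhibitory receptors gave few UMIs. Gzmb, a granule protease, had 11 UMIs in 4 PyMT-M T cells and 86 UMIs in 4 PyMT-N T cells (62.9 and 328 CPM). Gzmk had 0 UMIs, which allows up to 17.2 and 11.4 CPM, Ifng had 3 and 2 UMIs, and Pdcd1, Lag3, Havcr2 and Tigit had between 1 and 6 UMIs each in either library. Tox, a factor of T cell development and chronic stimulation, was at 538 and 736 CPM. S1pr1, a receptor through which lymphocytes leave lymph nodes, was at 132 CPM in T cells of PyMT-M and 122 CPM in those of PyMT-N. In B cells, Cxcr5 and Ccr6, chemokine receptors of B cell areas, were at 93.9 and 102 CPM in PyMT-M, against 110 and 90.8 CPM in PyMT-N.

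Some members also had RNA of other leukocytes, with counting intervals that overlap between the libraries. In PyMT-M, 14 of 71 T cells (19.7%, 11.2 to 30.9) had at least 5 UMIs of 8 myeloid and mast cell genes (Lyz2, Fcer1g, Cd68, C1qc, S100a8, S100a9, Cpa3 and Mcpt4, a limit set after the data were seen), against 3 of 48 in PyMT-N (6.25%, 1.31 to 17.2). These 14 were deeper (median 4127.5 UMIs against 1713) and held 37.1% of the UMIs of PyMT-M T cells. One had all 96 Mcpt4 UMIs and all 20 Cpa3 UMIs, genes of mast cell granules, and 51 of 52 S100a9 UMIs were in 1 cell. Among B cells, 8 of 239 (3.35%, 1.46 to 6.49) and 2 of 102 (1.96%, 0.238 to 6.90) had such UMIs. Among the B and T marker genes of the rule alone, UMIs of the opposite class were found in 3 of 239 B cells and 3 of 71 T cells of PyMT-M. In PyMT-N, where B and T cells were 2.63-fold and 2.66-fold deeper, they were found in 7 of 102 and 8 of 48.

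Few genes were past 2-fold between B cells of PyMT-M and PyMT-N. With 50 CPM added, 5 of 2979 ranked genes were higher in PyMT-M and 5 in PyMT-N (0.168% each, 0.336% together), and the median ratio was -0.05. With 5 CPM added the counts were 31 and 51, and 395 of the 2979 genes had a ratio whose counting interval did not hold 0. The 15 B cell markers outside the rule summed to 13808 and 13818 CPM, with a log2 ratio of -0.00 (-0.06 to 0.05), and immunoglobulin constant genes had a ratio of 0.05 (-0.01 to 0.11). MHC class II presentation stood at 22349 and 23691 CPM (-0.08, -0.13 to -0.04), and B cell receptor signaling at 4901 and 4724 CPM (0.05, -0.04 to 0.15). None of the 15, 6, 10 and 13 ranked members of these lists was past 2-fold.

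The 5 genes higher in PyMT-M B cells were Ifitm3, an interferon-induced antiviral protein, S100a6, a calcium-binding protein, the lysosomal proteases Ctsb and Ctsl, and the galectin Lgals1. Ifitm3 was at 435 CPM in PyMT-M and 61.4 CPM in PyMT-N. Without the 10 B cells that had myeloid or mast cell UMIs, none of these 5 was past 2-fold with 50 CPM added and Irf4 was. Ctsl kept a similar fold at 81.5 and 17.5 CPM (log2 ratio 2.22, 0.98 to 3.67, against 2.38 over all B cells), and the ratios of the other 4 lay between 0.81 and 0.90. Irf4, a transcription factor of B cell activation, was then at 229 and 87.6 CPM (log2 ratio 1.39, 0.78 to 2.01) and had been at 211 and 85.9 CPM over all B cells. The interferon response list was higher in PyMT-M, at 5034 against 3949 CPM (0.35, 0.25 to 0.45), and the ratio was 0.18 without those cells. Over all B cells its 10 ranked members had a median of 0.17. Of these 10, 0 were past 2-fold, against 0.336% of all ranked genes in either direction, so the count does not set the list apart.

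The 5 genes higher in PyMT-N B cells were Fn1, Spp1, Skap1, Ldlrad4 and Lef1, and all 5 stayed past 2-fold without those cells, joined by Sik1, a salt-inducible kinase, at 15.7 and 87.6 CPM (-2.48, -4.19 to -1.12). Fn1, encoding fibronectin, was at 14.2 CPM in PyMT-M and 206 CPM in PyMT-N, and Spp1, encoding the secreted protein osteopontin, at 76.8 and 314 CPM. In tumor-marker cells Fn1 was at 1.80 CPM in PyMT-M and 5001 CPM in PyMT-N, and Spp1 at 1748 and 24586 CPM, so both were also higher in the tumor-marker cells of PyMT-N. Skap1 and Lef1 are T cell genes. Skap1 had 66 UMIs in 11 PyMT-N B cells against 14 UMIs in 11 PyMT-M B cells. The 14 T cell markers outside the rule summed to 285 CPM in B cells of PyMT-M and 699 CPM in those of PyMT-N (-1.30, -1.64 to -0.96). UMIs of the rule's own T marker genes were also found in a larger share of PyMT-N B cells, as given above. The part of B cells with T cell RNA in these differences was not tested.

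In T cells, several of the genes highest in PyMT-M were genes of myeloid cells. Of 2300 ranked genes, 48 were past 2-fold higher in PyMT-M (2.09%) and 27 lower (1.17%), 3.26% together, with a median ratio of 0.01, and 354 had a ratio whose counting interval did not hold 0. The 10 highest were Ifitm3, Hmox1, Lgals3, Fcer1g, Tgfbi, Tyrobp, Ms4a6c, Ccl4, Ctsb and Fabp5. Fcer1g, an Fc receptor chain of myeloid cells, was at 944 and 130 CPM, and macrophage and monocyte markers summed to 3088 CPM in PyMT-M against 476 CPM in PyMT-N (2.70 on the log2 scale, 2.41 to 2.99). Csf1r and C1qa, which define macrophages and are limited by the rule, had 4 UMIs and 1 UMI in PyMT-M T cells, and Lyz2 was the most abundant gene of the list there. Without the 17 T cells with myeloid or mast cell UMIs, the list stood at 345 and 361 CPM (ratio -0.07), 7 of 1777 ranked genes were past 2-fold higher (0.394%) and 48 lower (2.7%), and 1 of the 48 higher and 20 of the 27 lower genes were shared with the comparison of all T cells.

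**Figure D3:**
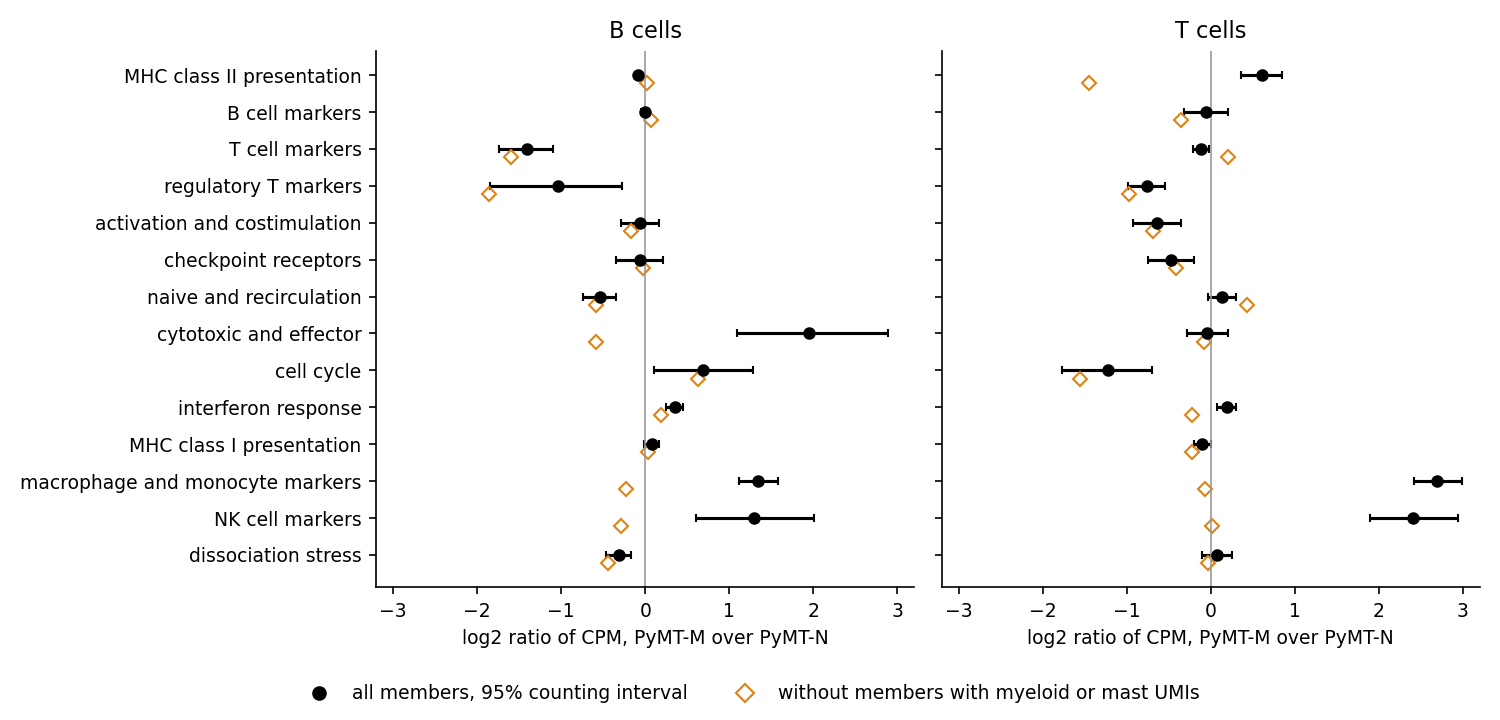
Log2 ratio of the summed level of each list, PyMT-M over PyMT-N, in B cells (left) and T cells (right), for all members with 95% counting intervals (black) and without members with myeloid or mast cell UMIs (orange diamonds, 10 B and 17 T cells). In T cells the ratio of macrophage and monocyte markers moved from 2.70 to -0.07, whereas that of regulatory T markers was -0.76 and -0.97.

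The summed levels of regulatory and of activation genes were higher in T cells of PyMT-N with and without those cells. Regulatory T markers summed to 1372 CPM in PyMT-M and 2325 CPM in PyMT-N (log2 ratio -0.76, -0.98 to -0.54), and to 1191 and 2330 CPM without them. Ikzf2, a factor of regulatory T cells, was at 457 CPM (16 of 71 cells) and 938 CPM (22 of 48 cells). It had 80 of the list's 240 UMIs in PyMT-M and 246 of 610 in PyMT-N. For Foxp3, the intervals of the shares given above overlap. Ctla4, an inhibitory receptor, was at 172 CPM and 381 CPM, and Il2ra, the high-affinity IL-2 receptor chain, had 5 UMIs and 34 UMIs. Of 6 ranked members, Il2ra alone was past 2-fold over all T cells, against 1.17% of all ranked genes, and the list's median was -0.81. Without the cells with myeloid or mast cell UMIs, Il2ra, Ctla4 and Ikzf2 were past 2-fold, against 2.7% of all genes ranked there, with log2 ratios of -2.33 (-4.68 to -0.66), -1.44 (-2.30 to -0.67) and -1.26 (-1.78 to -0.77).

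Tnfrsf9, a costimulatory receptor, was at 120 and 282 CPM, and the activation and costimulation list at 875 and 1361 CPM (-0.64, -0.92 to -0.36), or 845 and 1358 CPM without those cells. Icos, also a member of the regulatory list, had the most UMIs of the activation list (29 and 76). Over all T cells, 0 of the 6 ranked members of this list were past 2-fold in either direction, against 1.17% of all ranked genes that were lower in PyMT-M. Without those cells Tnfrsf9 was lower, with 11 and 71 UMIs (-1.56, -2.63 to -0.64), against 2.7% of all genes ranked there. Cell cycle genes were at 223 CPM in PyMT-M and 518 CPM in PyMT-N (-1.22, -1.77 to -0.69), led by Stmn1, a microtubule regulator, which had 6 UMIs in 2 cells and 38 UMIs in 8 cells. The 10 genes lowest in PyMT-M were Ctla2a, H2ac24, Tnfsf8, Il2rb, Ero1a, Clnk, Furin, Gm10076, Rgs1 and Ctsw. Ctla2a, a cysteine protease inhibitor of activated T cells, was at 80.1 and 637 CPM, in 8 and 25 cells. Il2rb, the IL-2 receptor beta chain, was at 40.0 and 210 CPM, in 6 and 24 cells. T cell markers outside the rule (5701 and 6148 CPM) and T cell receptor signaling (2819 and 2771 CPM) had log2 ratios of -0.11 (-0.22 to 0.01) and 0.02 (-0.14 to 0.19). Cytotoxic and effector genes had similar sums, 1321 and 1361 CPM (-0.04, -0.29 to 0.20), with members on both sides. Of their 6 ranked members, the chemokines Ccl5 (246 and 76.2 CPM) and Ccl4 (36 UMIs and 0 UMIs) were past 2-fold higher in PyMT-M and Ctsw, a cysteine protease of cytotoxic cells, lower (74.3 and 244 CPM), against 3.26% of all ranked genes in either direction. Of these 3, Ctsw was past 2-fold without the cells with myeloid or mast cell UMIs too, and Ccl5 and Ccl4 were not called there.

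Higher in PyMT-M T cells, once cells with myeloid or mast cell UMIs were left out, were Foxp1, Themis, Maml2, Hsd11b1, Naa15, Ubac2 and BE692007. Foxp1, a factor that keeps T cells quiescent, was at 1472 and 698 CPM (1.08, 0.76 to 1.40), and Themis, a T cell receptor signaling protein of thymocytes, at 582 and 216 CPM (1.43, 0.88 to 1.99). The naive and recirculation list stood at 2859 and 2607 CPM over all T cells (0.13, -0.04 to 0.30) and at 3635 and 2687 CPM without those cells (0.44). These comparisons rest on 71 and 48 T cells, or on 57 and 45 without those with myeloid or mast cell UMIs.

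Lymphocytes were also set against a myeloid reference (at least 5 UMIs of Csf1r, C1qa, C1qb and Lyz2, 108 barcodes in PyMT-M and 142 in PyMT-N). The rule chose against the genes of this reference, so the differences are a description. In PyMT-M, 258 of 4650 ranked genes were past 2-fold higher in lymphocytes (5.55%) and 397 lower (8.54%), 14.1% together. They were led by Igkc, Ly6d and Iglc3 and by Cdh13, Cxcl2 and Spp1. Cdh13 had 323 UMIs in 15 of the 108 reference barcodes. Tumor markers, which include Spp1, stood at 1523 CPM in this reference and 126 CPM in lymphocytes. C1qc, a complement chain of macrophages, was at 11.3 CPM in lymphocytes and 358 CPM in the reference. In PyMT-N, 10 of 7965 genes were higher in lymphocytes (0.126%) and 221 lower (2.77%), 2.9% together, led by Iglc1 and by Apoe. The PyMT-N reference itself held lymphocyte RNA, since 126 of its 142 barcodes (88.7%, 82.3 to 93.4) had 2 or more lymphocyte marker UMIs, against 27 of 108 (25.0%, 17.2 to 34.3) in PyMT-M. With such barcodes left out, 16 barcodes remained in PyMT-N and 81 in PyMT-M. Of 4248 genes then ranked in PyMT-N, 434 were higher in lymphocytes and 380 lower (10.2% and 8.95%). In PyMT-M, 337 were higher and 445 lower of 4045 (8.33% and 11%). Tumor markers, most of it Spp1, stood at 11022 CPM in the 16 barcodes, against 472 CPM in PyMT-N lymphocytes, and endothelial markers at 718 and 242 CPM. For PyMT-M these were 1722 and 126 CPM, and 211 and 265 CPM. The rule limits several such genes in lymphocytes, and their part in the lower genes was not tested.

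Of the genes of the sort, lymphocytes held Pecam1 and, within the rule's limit on endothelial genes, almost none of Cdh5. Pecam1 encodes CD31, an adhesion molecule of endothelium that leukocytes also carry, and Cdh5 encodes CD144, the cadherin of endothelial junctions. B cells had 103 Pecam1 UMIs in 80 of 239 cells of PyMT-M (293 CPM, 239 to 356) and 115 in 69 of 102 cells of PyMT-N (282 CPM, 233 to 339). T cells had 137 CPM and 111 CPM. B cells were thus higher than T cells in both libraries, by 1.09 (0.44 to 1.80) and 1.35 (0.75 to 1.99) on the log2 scale. Endothelial reference cells had 1285 and 1060 CPM of Pecam1 with 974 and 1169 CPM of Cdh5. In the lymphocytes, Cdh5 had 0 UMIs in PyMT-M (up to 8.54 CPM in B cells), and 1 UMI in B cells and 0 in T cells of PyMT-N.

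The other endothelial genes of the rule were near 0 too. Flt1 and Kdr, VEGF receptors, had 1 UMI each over all B and T cells of both libraries, and Emcn, a sialomucin of capillaries and veins, had 4. B cells had 103 Pecam1 UMIs beside 1 UMI of Cdh5, Flt1, Kdr and Emcn together in PyMT-M and 115 beside 3 in PyMT-N, whereas endothelial reference cells had 0.347 and 0.293 Pecam1 UMIs for each UMI of these 4 genes. After thinning to 1031 UMIs, Pecam1 was found in 26.8% of B cells of PyMT-M and 29.7% of PyMT-N, in 14.9% and 8.33% of T cells, in 1.00% and 2.00% of tumor-marker cells and in 77.3% and 64.3% of endothelial reference cells. The rule allows up to 3 UMIs of Pecam1, Flt1, Emcn and Kdr in sum, so the levels are bounded from above and are given as a description. The endothelial reference was itself chosen by UMIs of Flt1, Emcn and Kdr. The choice of cells therefore sets the Pecam1 ratio in part on both sides. With a limit of 1 UMI on Flt1, Emcn and Kdr and none on Pecam1, an alternative chosen after the data were seen, B cells numbered 242 and 115 and had 324 and 373 CPM. With no limit on any of the 4 endothelial genes, Cdh5 had 10 UMIs in 2 of 244 B cells and 0 UMIs in T cells of PyMT-M, and 1 UMI in B cells and 40 UMIs in 3 of 53 T cells of PyMT-N (117 CPM). Without that limit, Pecam1 and the sum of Cdh5, Flt1, Kdr and Emcn had 129 and 39 UMIs in B cells of PyMT-M and 74 and 116 UMIs in T cells of PyMT-N, so the near absence of Cdh5 holds for members kept by that limit.

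**Figure D4:**
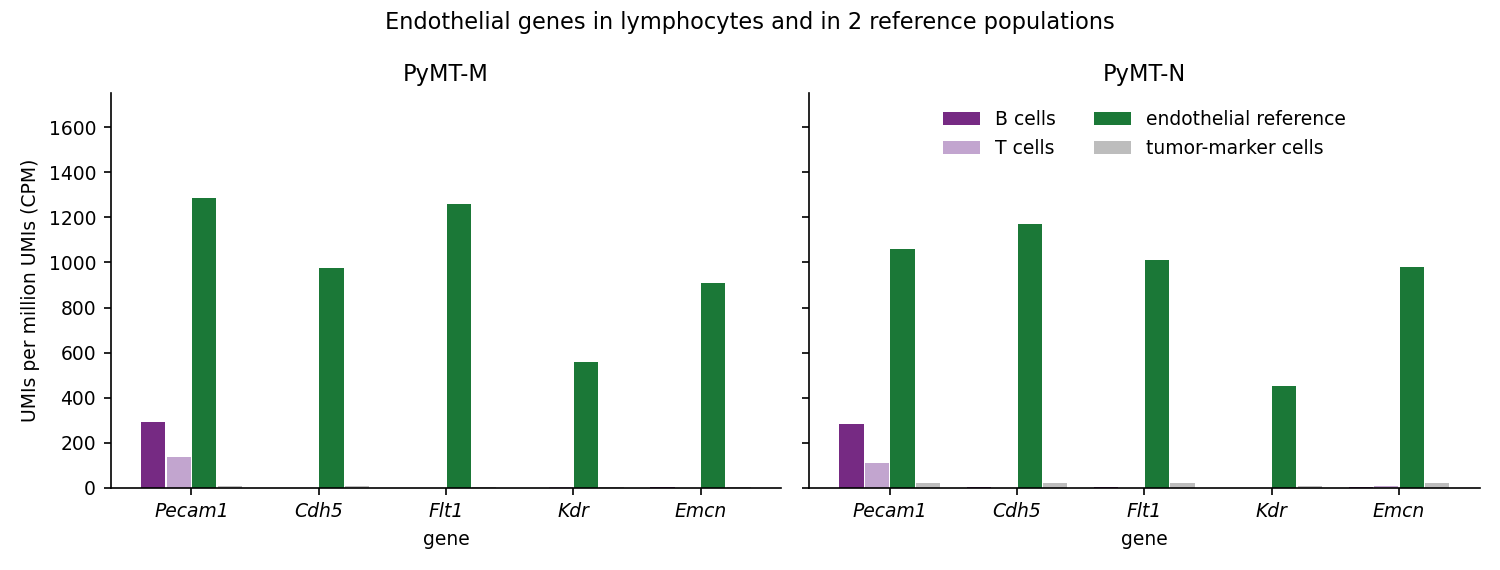
Level of Pecam1 and of 4 endothelial genes (CPM) in B cells, T cells, endothelial reference cells and tumor-marker cells of each library. Pecam1 stood at 293 and 282 CPM in B cells of PyMT-M and PyMT-N, while Cdh5 was at 0.00 and 2.45 CPM there and at 974 and 1169 CPM in the endothelial reference.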

How the data were processed

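The authors deposited UMI counts, whole numbers per gene and barcode (33696 genes), in filtered matrices of 1 10x 3′ library per condition. Per the labels these were made with Cell Ranger 8.0.0 on mm39, and the counts were not normalized. No mm39 annotation was used here, so genes are given by symbol without coordinates. The promoters are from RefSeq on GRCm38.p6.

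Members, comparisons and the 37 gene lists (343 genes) were chosen with earlier results of these data known. Counts were summed per library and class. A pair of sums was compared by the log2 of their CPM ratio, with limits from the exact binomial interval of one Poisson count given both (numpy 2.4.6, scipy 1.17.1, pandas 2.3.3). Shares have Clopper-Pearson intervals at 95%. A count of 0 was set against a floor of 3 UMIs over the group. PCR and free RNA are outside these intervals. Ranked genes had at least 30 UMIs over both sides and a UMI in at least 5 cells and 10% of cells of the higher side. The text names the 10 highest and 10 lowest of a comparison, the rule's genes, leading list members and the genes of the sort, and further genes chosen after their values were seen. The summary was tested on simulated data. Doublets were scored with Scrublet in scanpy 1.11.5 and kept. Its automatic threshold called 0 barcodes in PyMT-M, where it did not work, and 154 (2.75%) in PyMT-N. The 6% with the highest scores were left out as an alternative. The list genes Vpreb1, Tcrg-C1, Tcrg-C2, Tcrg-C4 and Cd163l1 were not found under these symbols.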

Additional observations from a re-analysis of the deposited data

Results flagged for a closer look

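Lymphocyte marker UMIs were also found in barcodes outside the comparisons above. In PyMT-N, 134 barcodes met the other limits on genes, mitochondrial UMIs, leukocyte and tumor genes but had more than 1 UMI of Csf1r, C1qa and C1qb, against 25 in PyMT-M. Their median depth was 12244.5 UMIs in PyMT-N and 5074 UMIs in PyMT-M, above that of the B and T cells. Of the 134, 115 had at least 2 B marker UMIs, 82 at least 2 T marker UMIs and 63 both. The same counts in PyMT-M were 12, 20 and 7. More than 3 endothelial marker UMIs were found in 54 of the 134 and in 3 of the 25. The highest Scrublet scores, set as the top 6% of each library, held 9 of the 134 (6.72%) and 0 of the 25. For PyMT-N this is near the 6% that the limit builds in. These barcodes are not counted as lymphocytes here, and whether each holds 1 cell or several was not tested.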

How the results depend on the processing

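No paired analysis was possible because each condition had 1 library. Of 178 alternative values of the main results, 128 stayed within 1.5 times of a count or within the counting interval. The order of the libraries by lymphocyte share turned under the gene limits of the study, and B cells were no longer the majority. Lymphocytes were 0.121% of PyMT-M and 0.598% of PyMT-N barcodes under the gene limits of the study, with B shares of 28.6% and 46.9%, and 3.15% and 1.11% without any endothelial marker UMI, with a B share of 53.2% in PyMT-N. The share was 2.27% in PyMT-N without any macrophage marker UMI and, as an alternative added later, 4.13% with no limit on them. With 5 CPM added in place of 50, B against T gave 373 genes higher and 426 lower, PyMT-M against PyMT-N 31 and 51 in B cells and 97 and 77 in T cells, and lymphocytes against myeloid 468 and 1107 for PyMT-M, or 83 and 1196 for PyMT-N. Thinning left fewer genes to rank. It gave 204 higher and 100 lower of 1721 for B against T (11.9% and 5.81%), 15 and 2 of 1486 for PyMT-M against PyMT-N in B cells (1.01% and 0.135%), 10 and 18 of 453 in T cells (2.21% and 3.97%), and 22 and 79 of 1560 against myeloid in PyMT-N (1.41% and 5.06%). Totals without mitochondrial, ribosomal-protein and hemoglobin genes gave 6 higher and 11 lower in B cells, 54 and 50 in T cells, and 31 higher against myeloid in PyMT-N. Means over cells gave 3 lower in B cells, 31 and 44 in T cells, and 6 higher against myeloid in PyMT-N, where leaving out the highest Scrublet scores gave 5. A minimum of 10 UMIs gave 81 higher in T cells. Chosen after the data were seen, leaving out members with myeloid or mast cell UMIs gave 1 higher in B cells and 7 higher and 48 lower in T cells, where Fabp5 reversed to a log2 ratio of -1.11, the cleaned myeloid reference gave 434 and 380 in PyMT-N, and dropping the limit on Pecam1 gave 373 CPM in PyMT-N B cells. H2ac24 in T cells reversed to 0.033 without any tumor marker UMI. Shares of T cells with at least 2 UMIs were 1.41% and 8.33% for Cd4 and 2.82% and 10.4% for Foxp3 in the respective libraries, and thinning gave 4.17% for Cd4 and 12.5% for Cd8 in PyMT-N. B cells with both Ighm and Ighd were 54.8% and 85.3%, beside 2.82% and 6.25% of T cells, 42.4% and 45.5% after thinning, and 20.1% and 67.6% with at least 2 UMIs of each. Beyond those that the settings build in, causes were not tested. Depth limits genes of few UMIs most in T cells, where 3 counts are 17.2 CPM in PyMT-M and 11.4 CPM in PyMT-N.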

Other observations

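Some lists outside the comparisons above also differed between the classes or libraries by their summed levels. Interferon response genes were higher in T cells than in B cells of each library (6376 and 5580 CPM against 5034 and 3949 CPM), and of 19 ranked members Isg15 and Bst2, both induced by interferon, were past 2-fold higher in T cells, against 4.19% of all ranked genes. Without members with myeloid or mast cell UMIs the list stood at 4735 CPM in T cells and 4466 CPM in B cells of PyMT-M, and at 5520 and 3934 CPM in PyMT-N. Leukocyte adhesion genes stood at 1390 and 1357 CPM in T cells and 760 and 776 CPM in B cells of PyMT-M and PyMT-N. Plasma cell markers were at 606 CPM in B cells of PyMT-M and 299 CPM in those of PyMT-N (log2 ratio 1.02, 0.69 to 1.35), while Jchain and Sdc1, which define secreting cells, had 3 and 5 UMIs and 0 and 4 UMIs. Dissociation stress genes, which enzymatic digestion induces, were at 1753 and 2182 CPM in B cells and 2447 and 2325 CPM in T cells.

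Markers of other cell types differed in level. The rule limits several endothelial and tumor genes and 3 macrophage genes, which bounds those lists. Macrophage and monocyte markers were at 1446 and 569 CPM in B cells, or 467 and 548 CPM without those members, beside the 3088 and 476 CPM of T cells given above. Endothelial markers summed to 313 and 317 CPM in B cells and 160 and 130 CPM in T cells, most of it Pecam1. Tumor markers were at 114 and 567 CPM in B cells and 149 and 347 CPM in T cells, most of it Spp1. Neutrophil markers were at 549 CPM and 0 UMIs in T cells, mast cell markers at 715 and 7.62 CPM, and erythroid and platelet markers at 206 and 15.2 CPM. Without the members with myeloid or mast cell UMIs these were 9.09 CPM and 0 UMIs, 0 UMIs and 8.31 CPM, and 9.09 and 16.6 CPM, so the last 2 were then lower in PyMT-M, on 4 UMIs or fewer a library. Fibroblast and pericyte markers were at 14.2 and 9.82 CPM in B cells. Dendritic cell markers were at 57.2 and 22.9 CPM and NK cell markers at 829 and 156 CPM in T cells, and without those members the dendritic list stood at 0 UMIs and 24.9 CPM (6 UMIs) and the NK list at 54.5 and 54.0 CPM. Gamma-delta T and ILC markers were at 206 and 427 CPM in T cells. Germinal center markers were at 199 and 106 CPM and early B markers, with Vpreb3 the 1 gene detected, at 139 and 179 CPM in B cells. Lymphocyte cytokines were at 896 and 908 CPM in B cells and 778 and 983 CPM in T cells, chemokine and egress receptors at 882 and 913 CPM and 801 and 850 CPM, quiescence factors at 4275 CPM in B cells of each library and 3311 and 2950 CPM in T cells, checkpoint receptors at 544 and 569 CPM and 949 and 1315 CPM, and survival genes at 854 and 903 CPM and 1264 and 1235 CPM.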
